A study of Mus musculus with 12 samples.

Results

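Receptors that guide B cells through lymphoid tissue were followed in mouse B lymphoma cells by 7 genes, picked by symbol from the 51826 genes in the count files: Cxcr4, Cxcr5, Ccr6, Ccr7, S1pr1, S1pr4 and Gpr183. The libraries, prepared with a 3′ mRNA kit, come from 3 lines that differ in RPL12, a ribosomal protein of the large subunit: unchanged (WT), or with alanine (S38A) or aspartate (S38D) in place of serine 38. From each line 2 libraries were made of asynchronous cultures and 2 of mitotic cells, 12 in all. Only the mitotic cells had been held in nocodazole (100 ng/mL, 8 h), which disrupts microtubules, then washed and released for 10 min, so mitosis and the drug cannot be told apart. Cycloheximide was present at harvest in every group, and the RNA is total RNA of the lysates used for polysome work.

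All groups share 1 parental line, 19DN, sorted as reporter-negative cells from 19PP after Flp had removed GFP and hCD2 reporters. 19PP arose in a Rag2-/-γC-/- mouse that carried donor marrow with Cγ1-Cre and Myc/P110*flSTOP alleles, so the WT cells too carry a Myc and a PI3K transgene, released by a Cre that is active mainly in germinal centre B cells. The labels do not say how the RPL12 alleles were made or whether a line is a single clone, and gene counts do not show codon 38. They also do not say that the 2 libraries of a group came from separate cultures, so p-values measure only the spread between these libraries, which may be technical.

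These receptors are G protein-coupled receptors that steer B cells between compartments. CXCR4 binds CXCL12 and holds cells in bone marrow and in the dark zone of germinal centres, and CXCR5 binds CXCL13 and draws cells into follicles. CCR7 (ligands CCL19 and CCL21) pulls cells to the T cell zone, CCR6 follows CCL20, GPR183 follows oxysterols to the outer follicle, and S1PR1 and S1PR4 read sphingosine 1-phosphate (S1P), which S1PR1 uses to let cells leave the tissue. Germinal centre B cells are known for high CXCR4 and CXCR5 and for low CCR6, CCR7, S1PR1 and GPR183.

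Libraries held 3432875 to 6587997 gene reads (median 5548100), and levels are given in CPM, counts scaled to a common depth with TMM factors. On the first axis of what line and state leave unexplained (68.1% of that variance, 7062 genes), S38D asynchronous replicate 1 (33.7) and WT mitotic replicate 1 (28.9) stood apart from the other 10 libraries (-15.6 to 8.77). All 8 B cell markers were measured, and their sum was 2580 to 3620 CPM in asynchronous and 1547 to 2323 CPM in mitotic libraries. Of 8 T and NK cell markers 6 had no read (Cd3e, Cd3g, Cd8a, Cd4, Nkg7 and Ncr1) and the sum was at most 0.782 CPM. Markers of myeloid and dendritic cells summed to 6.37 to 28.3 CPM in asynchronous and 3.4 to 14.9 CPM in mitotic libraries (Cd14 and Itgam at 0, Flt3 highest), and those of stromal, endothelial and epithelial cells to 2.27 to 6.38 and 3.02 to 4.79 CPM (Col1a2, Krt18, Krt8 and Pdpn at 0). The part of these shifts in the results was not tested. In bulk RNA, fewer cells of a type and less RNA per cell cannot be told apart.

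Promoters are shown for Cxcr4, the gene with most reads, and for the 3 genes that were almost unread, the 4 of 7 matched in RefSeq (GRCm38.p6). Each is the 250 bases before the start of transcription, 5′ to 3′ on the gene's strand, with CpG dinucleotides in capitals. The windows are chr1:128592300-128592549 (minus strand) for Cxcr4, chr17:8235793-8236042 (plus strand) for Ccr6, chr14:121965194-121965443 (minus strand) for Gpr183 and chr10:81500138-81500387 (minus strand) for S1pr4.
Cxcr4: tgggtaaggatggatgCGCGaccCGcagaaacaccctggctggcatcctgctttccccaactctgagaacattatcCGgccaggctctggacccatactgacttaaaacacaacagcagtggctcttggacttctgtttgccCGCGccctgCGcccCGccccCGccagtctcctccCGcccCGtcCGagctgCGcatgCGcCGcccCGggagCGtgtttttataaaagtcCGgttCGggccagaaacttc
Ccr6: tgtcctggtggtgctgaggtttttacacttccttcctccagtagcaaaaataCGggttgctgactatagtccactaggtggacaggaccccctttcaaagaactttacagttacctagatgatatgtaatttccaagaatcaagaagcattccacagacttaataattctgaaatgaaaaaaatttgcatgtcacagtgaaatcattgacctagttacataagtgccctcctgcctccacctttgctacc
Gpr183: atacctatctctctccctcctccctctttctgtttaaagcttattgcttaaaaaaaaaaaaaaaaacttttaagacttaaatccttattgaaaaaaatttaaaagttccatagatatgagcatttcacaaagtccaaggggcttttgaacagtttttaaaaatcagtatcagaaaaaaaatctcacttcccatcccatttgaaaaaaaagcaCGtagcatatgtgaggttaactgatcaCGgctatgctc
S1pr4: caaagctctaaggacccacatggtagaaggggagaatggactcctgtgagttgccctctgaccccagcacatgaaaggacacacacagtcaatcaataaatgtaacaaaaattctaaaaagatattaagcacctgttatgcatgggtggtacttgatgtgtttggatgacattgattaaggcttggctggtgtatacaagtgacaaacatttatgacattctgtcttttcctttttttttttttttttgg
The Cxcr4 window held 19 CpG and was 61.2% G or C, and 19.7% of 32851 RefSeq windows of this length held at least as many CpG (median 6). The Ccr6 window held 1 CpG, that of Gpr183 2 and that of S1pr4 0, and 18.8%, 29.0% and 7.87% of all windows held as few. A further RefSeq start of Ccr6 had 7 CpG. Both strands were searched for 5 motifs, chosen with these sequences known. TATAAA occurred in the Cxcr4 window (12.4% of all windows hold it), the octamer ATGCAAAT in the Ccr6 window shown (1.60%) and CCACCC, a KLF motif, in the S1pr4 window (28.1%). The FOXO motif GTAAACA (3.17%) and the AP-1 motif TGANTCA (6.75%) were found in none of them. Such matches describe letters and are not binding sites.

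The 7 genes fell into 3 ranges of reads. Cxcr4 had 33561 reads over the 12 libraries and Cxcr5 had 2428. Ccr7 and S1pr1 had 109 and 105 reads, with at least 1 in every library. Ccr6 had 11 reads in 6 libraries, Gpr183 had 1 read, in WT asynchronous replicate 2, and S1pr4 had 0 of 64425668 gene reads, which allows up to 0.0466 CPM over all libraries (3 reads). In a single library 3 reads are 0.455 to 0.874 CPM, so a gene with no read in a library may still have a level up to that.

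Genes were tested when at least 2 libraries reached about 10 reads (1.80 CPM), and 4 of the 7 passed. Cxcr4 and Cxcr5 reached it in all 12 libraries. Ccr7 passed only through the 4 WT libraries and S1pr1 only through the 4 mitotic S38A and S38D libraries, where each is highest, so no count over the members is read as support. A gene is called at an adjusted p under 0.05 in edgeR's quasi-likelihood test, with Benjamini-Hochberg adjustment over 10477 genes. Adjusted p-values are from that test unless another tool is named.

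**Figure D1:**
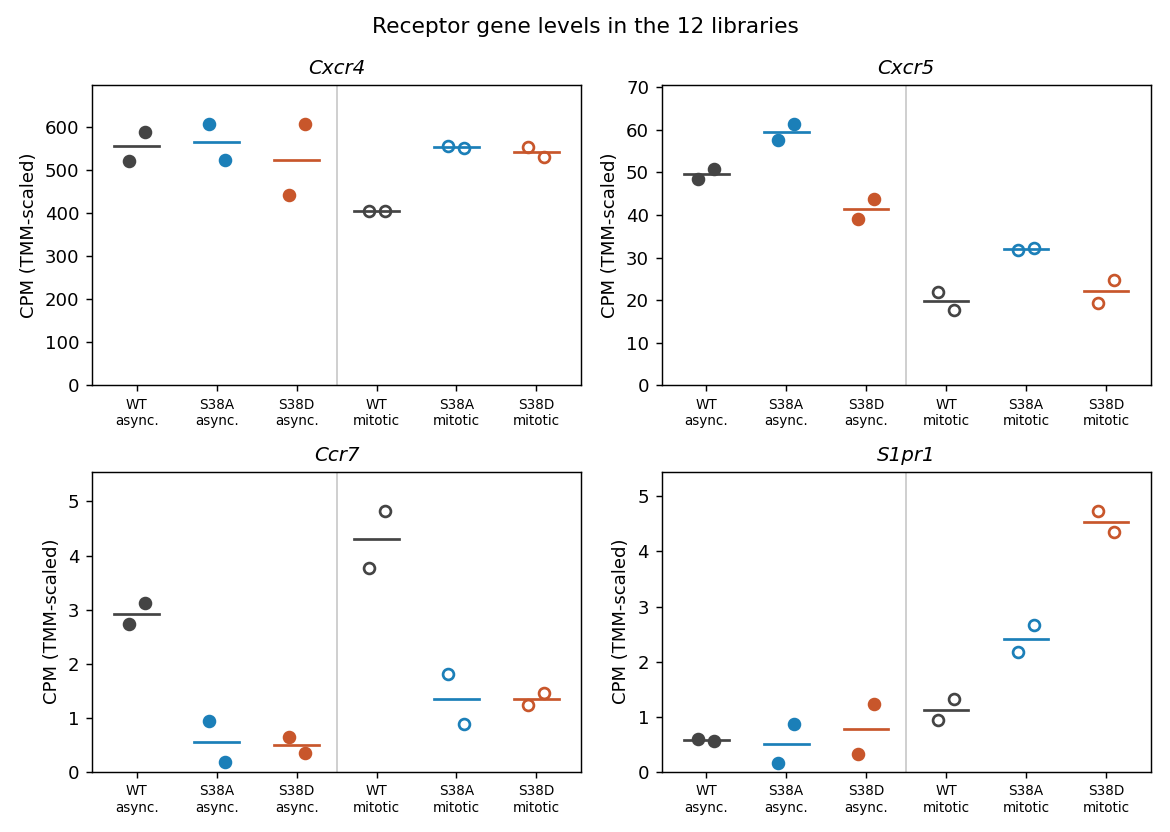
Level of Cxcr4, Cxcr5, Ccr7 and S1pr1 in CPM (TMM-scaled, linear axes from 0) in each of the 12 libraries. Points are libraries (filled asynchronous, open mitotic) and lines are means of 2 libraries. The highest mitotic library for Cxcr5 (32.3 CPM) lies under the lowest asynchronous one (39.2 CPM), and Cxcr4 is lowest in the WT mitotic libraries.

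Cxcr5, the receptor for the follicle chemokine CXCL13, was lower in mitotic cells of each line. The asynchronous CPM values were 48.5 and 50.7 (WT), 57.7 and 61.4 (S38A) and 39.2 and 43.8 (S38D). The mitotic CPM values were 21.9 and 17.6 (WT), 31.8 and 32.3 (S38A) and 19.4 and 24.8 (S38D). No mitotic library reached the lowest asynchronous one. The mean went from 50.2 ± 8.33 to 24.6 ± 6.25 CPM (SD, n = 6 libraries each).

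Over the 3 lines Cxcr5 fell by 1.04 on the log2 scale in mitotic cells (SE 0.0931, adjusted p = 3e-07, edgeR), where 42.1% of all genes were called. It fell by 1.32 in WT (SE 0.166, adjusted p = 6.14e-05), 0.89 in S38A (SE 0.156, adjusted p = 0.00109), and S38D fell by 0.90 (SE 0.162, adjusted p = 0.000678), with 26.0%, 14.8% and 26.4% of all genes called. All 4 falls were called under every alternative that was run, and the value over the lines stayed between -1.23 and -1.0. The fall was 0.43 smaller in S38A than in WT (95% interval -0.049 to 0.91, adjusted p = 0.312) and 0.42 smaller in S38D (-0.07 to 0.91, adjusted p = 0.334), differences that were not called. The B cell marker sum, given above, was also lower in mitotic libraries.

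Within a state, Cxcr5 was highest in S38A. In asynchronous cells S38A libraries lay above WT without overlap (0.26, adjusted p = 0.242, with 21.2% of all genes called). S38D libraries lay below WT without overlap (-0.26, adjusted p = 0.324, with 8.99% called). Neither difference was called, and with 2 libraries per group a lack of overlap is no support for one. S38D against S38A gave -0.52 (SE 0.153, adjusted p = 0.0511; 7.22% called). There edgeR called 0 members, with 1, Cxcr5, at an unadjusted p under 0.05. DESeq2 called 0 members there (Cxcr5 at adjusted p = 0.178) and limma-voom called Cxcr5 (0.0372), as did edgeR without the 2 libraries that stand apart (-0.46, adjusted p = 0.0385). Leaving out single libraries also brought the Cxcr5 call: S38D asynchronous replicate 2 (0.0236), WT mitotic replicate 1 (0.0408) or 2 (0.0406) and S38D mitotic replicate 1 (0.0441).

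In mitotic cells Cxcr5 was 0.69 higher in S38A than in WT (SE 0.166, adjusted p = 0.00865; 17.0% of all genes called). S38D overlapped with WT (0.16, adjusted p = 0.657; 4.56% called) and was 0.53 lower than S38A (SE 0.164, adjusted p = 0.0345; 17.7% called). The S38A call against WT was lost without WT mitotic replicate 2 (0.56, adjusted p = 0.084) or S38A mitotic replicate 2 (0.68, adjusted p = 0.0579). That of S38D against S38A was lost with DESeq2 (0.161), spike-in scaling (0.0664), or without WT asynchronous replicate 2 (0.0514), S38A asynchronous replicate 1 (0.0545) or 2 (0.055), S38A mitotic replicate 1 (0.132) or 2 (0.146) or S38D mitotic replicate 1 (-0.37, adjusted p = 0.252).

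Ordered by mean Cxcr5, the groups were asynchronous S38A (59.5 CPM), WT (49.6) and S38D (41.5), then mitotic S38A (32), S38D (22.1) and WT (19.7). Only the last neighbours had overlapping libraries. Scaling to the spike-in RNA put the median of all genes at -0.47 for asynchronous S38A and -0.38 for asynchronous S38D against WT, and Cxcr5 was then below WT in both (-0.19, adjusted p = 0.446, and -0.63, adjusted p = 0.0441). Cxcr5 lies on chromosome 9 at 44511787 to 44561877 (GRCm38, minus strand, 5 exon blocks) and overlaps Bcl9l on the other strand, which had 1229 reads. Without a stated strand setting, reads from the overlap cannot be told apart.

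Cxcr4, the CXCL12 receptor of the germinal centre dark zone, was lowest in mitotic WT cells. The asynchronous CPM values were 519.5 and 588 (WT), 606 and 523 (S38A) and 442 and 605 (S38D). The mitotic CPM values were 405 and 405 (WT), 555 and 549 (S38A) and 552 and 529 (S38D). The 2 mitotic WT libraries were the lowest of the 12, and the next lowest, S38D asynchronous replicate 1, is a library that stands apart.

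In WT, Cxcr4 fell by 0.45 in mitotic cells (SE 0.133, adjusted p = 0.0203, edgeR). S38A gave -0.033 (95% interval -0.31 to 0.25, adjusted p = 0.905) and S38D gave 0.047 (-0.23 to 0.33, adjusted p = 0.829), neither called. The difference between the S38A and WT changes was 0.42 (95% interval 0.023 to 0.82, adjusted p = 0.242) and that between S38D and WT 0.50 (0.10 to 0.90, adjusted p = 0.179), so a dependence of the fall on the line was not called. In each of these 2 comparisons of changes edgeR called 0 members, with 1, Cxcr4, at an unadjusted p under 0.05. DESeq2, where it gave an adjusted p, and limma-voom called 0 as well, and 0.993% and 0.401% of all genes were called by edgeR.

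The fall of Cxcr4 in WT was not called without WT asynchronous replicate 1 (-0.54, adjusted p = 0.0524) or 2 (-0.34, adjusted p = 0.175) or WT mitotic replicate 1 (-0.42, adjusted p = 0.117) or 2 (-0.45, adjusted p = 0.0687). Over the 3 lines Cxcr4 was at -0.15 (95% interval -0.31 to 0.016, adjusted p = 0.138), and it was called lower without S38D asynchronous replicate 1 (-0.22, adjusted p = 0.00186), without both libraries that stand apart (-0.21, adjusted p = 0.00257) and with spike-in scaling (-0.33, adjusted p = 0.0398). The replicates of asynchronous S38D decided other Cxcr4 calls. Without replicate 1 the change in S38A minus WT was called (0.39, adjusted p = 0.0437). Without replicate 2 calls were made for the change in S38D minus WT (0.71, adjusted p = 0.00129), the change in S38D itself (0.28, adjusted p = 0.0455) and asynchronous S38D against S38A (-0.35, adjusted p = 0.0343).

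Among mitotic cells Cxcr4 was 0.45 higher in S38A than in WT (SE 0.133, adjusted p = 0.0291), and S38D was at 0.42 against WT (SE 0.133, adjusted p = 0.091). Both comparisons use the same WT libraries, and in both the mutant libraries lay above them. The S38A call was lost when WT mitotic replicate 1 or 2 or S38A mitotic replicate 1 or 2 was left out (adjusted p between 0.0889 and 0.136) and with spike-in scaling (0.45, adjusted p = 0.202). The S38D difference was called without S38D asynchronous replicate 1 (0.00277) or 2 (0.00286), which enter only the estimate of spread, without both libraries that stand apart (0.40, adjusted p = 0.0185), with no filter (0.00864) and with only the groups compared (0.0328).

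In asynchronous cells Cxcr4 was at 0.029 in S38A and -0.081 in S38D against WT, with overlapping libraries (95% intervals -0.25 to 0.31 and -0.36 to 0.20). By mean, the order was asynchronous S38A (565 ± 58.2 CPM) and WT (554 ± 48.3), mitotic S38A (552 ± 3.86) and S38D (541 ± 16.3), asynchronous S38D (523 ± 116) and mitotic WT (405 ± 0.0293; SD, n = 2 each). Only the last neighbours did not overlap. Cxcr4 lies on chromosome 1 at 128588199 to 128592293, minus strand, in 2 exon blocks.

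The ratio of Cxcr5 to Cxcr4 reads within a library needs no scaling. There were 7.25 to 11.7 Cxcr5 reads per 100 Cxcr4 reads in the 6 asynchronous libraries and 3.51 to 5.87 in the 6 mitotic ones, without overlap. The mean log2 ratio was -3.45 ± 0.226 in asynchronous and -4.37 ± 0.286 in mitotic libraries (SD, n = 6 each), -0.91 apart. This pair was chosen with its values known, so the ratio is a description with no test.

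**Figure D2:**
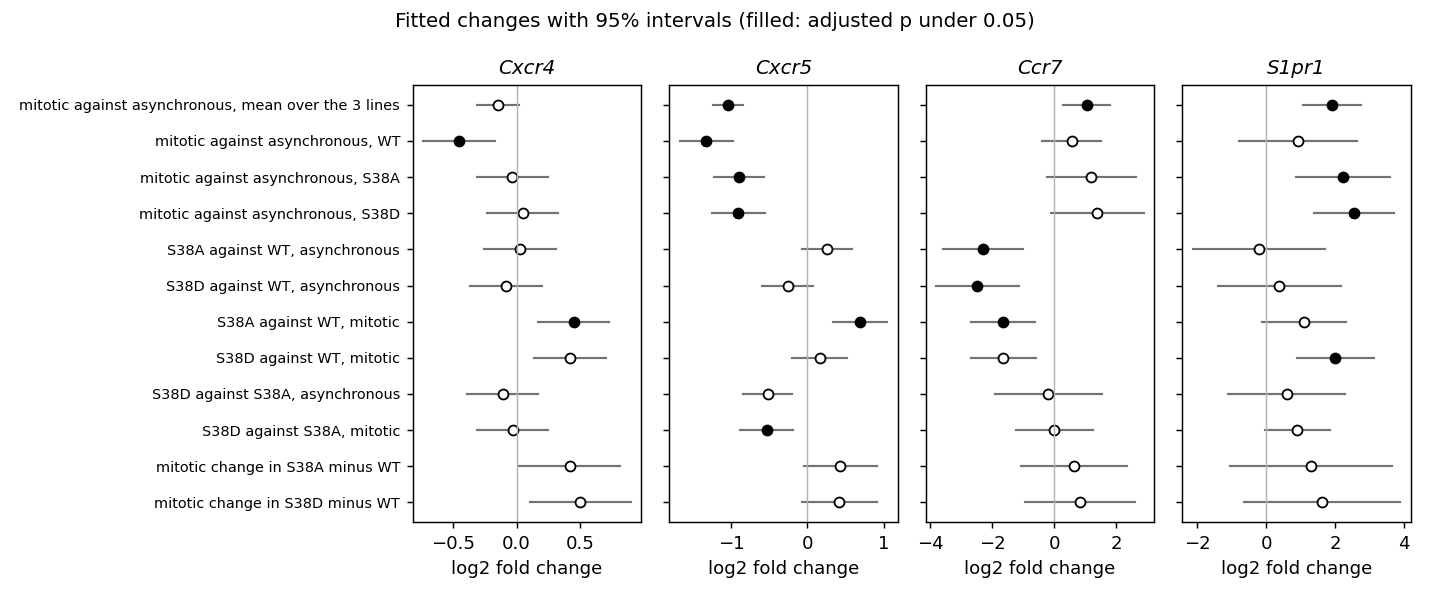
Fitted log2 fold change of Cxcr4, Cxcr5, Ccr7 and S1pr1 in the 12 comparisons, with 95% intervals. Filled points had an adjusted p under 0.05 and open points did not, and the 4 mitotic changes of Cxcr5 lie between -1.32 and -0.89, while Ccr7 and S1pr1, with few reads, have wide intervals.

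Ccr7, the receptor that moves activated B cells to the T cell zone, was rare, and its reads lay mostly in WT. WT libraries held 14 and 11 reads in asynchronous and 20 and 22 reads in mitotic cells. S38A libraries held 6 and 1 and then 10 and 5 reads, and S38D libraries 4 and 2 and then 6 and 8. On the CPM scale every WT library lay above every mutant library. Means for asynchronous cells were 2.93 ± 0.269 CPM (WT), 0.559 ± 0.547 CPM (S38A) and 0.495 ± 0.2 CPM (S38D), and for mitotic cells 4.3 ± 0.742, 1.35 ± 0.652 and 1.34 ± 0.151 CPM (SD, n = 2 each).

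In asynchronous cells Ccr7 was called lower than in WT for S38A (-2.29, SE 0.609, adjusted p = 0.0136, edgeR) and likewise for S38D (-2.48, SE 0.628, adjusted p = 0.0223). In mitotic cells it was called in S38A (-1.65, SE 0.486, adjusted p = 0.0278) and not in S38D (-1.65, SE 0.493, adjusted p = 0.0727). Both lines are set against the same WT libraries. Ccr7 passed the filter only through WT libraries, where it is highest, so these calls are no independent support for a difference between lines. From the summed reads, WT held 5.02 times the S38A level (95% exact counting interval 2.11 to 13.7) and 5.76 times the S38D level (2.31 to 17.2) in asynchronous cells. The mitotic ratios were 3.18 (1.73 to 6.16) and 3.16 (1.69 to 6.26). Such intervals cover counting error only.

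Single libraries ended the Ccr7 calls. Ccr7 stayed below WT in all 4 comparisons under every alternative that tested it (all but the 10 CPM filter). These alternatives draw on the same WT libraries, so a constant direction is no independent support. The asynchronous S38A call was lost without WT asynchronous replicate 1 (0.0749) or 2 (0.0687) or S38A asynchronous replicate 2 (-1.56, adjusted p = 0.133), and with DESeq2 (0.0993). The asynchronous S38D call was lost without WT asynchronous replicate 1 (0.132) or 2 (0.108) or S38D asynchronous replicate 1 (0.0573), and with only the groups compared (0.122). The mitotic S38A call was lost without WT mitotic replicate 1 or 2 or S38A mitotic replicate 1 or 2 (adjusted p between 0.0515 and 0.233). Mitotic S38D was called without S38D asynchronous replicate 1 (0.0376) or 2 (0.0361).

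Between states, Ccr7 rose by 1.04 over the 3 lines in mitotic cells (SE 0.357, adjusted p = 0.0269), with 0.56 in WT, 1.19 in S38A and 1.38 in S38D (adjusted p = 0.385, 0.263 and 0.164). The call was kept in 11 of 20 alternatives with an adjusted p. It was lost with DESeq2 (0.142) and spike-in scaling (0.88, adjusted p = 0.0618). It was also lost without WT asynchronous replicate 1, S38A asynchronous replicate 2, S38D asynchronous replicate 2, WT mitotic replicate 2, S38A mitotic replicate 1 or S38D mitotic replicate 1 or 2 (adjusted p between 0.0503 and 0.122). S38D against S38A was at -0.19 in asynchronous and 0.0049 in mitotic cells, with 95% intervals of -1.90 to 1.53 and -1.24 to 1.25. By mean the order was mitotic WT, asynchronous WT, mitotic S38A and S38D, and asynchronous S38A and S38D, and only the 2 mutant lines of 1 state overlapped as neighbours. Ccr7 lies on chromosome 11 at 99144196 to 99155077, minus strand, in 3 exon blocks.

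S1pr1, the S1P receptor of tissue exit, was also rare, and its reads lay mostly in mitotic mutant cells. Asynchronous libraries held 3 and 2 (WT), 1 and 5 (S38A) and 2 and 7 reads (S38D). Mitotic libraries held 5 and 6 (WT), 12 and 15 (S38A) and 23 and 24 reads (S38D). The mitotic means were 1.13 ± 0.263 CPM (WT), 2.41 ± 0.346 CPM (S38A) and 4.54 ± 0.275 CPM (S38D; SD, n = 2 each), and these 3 groups did not overlap. The asynchronous means of 0.577, 0.51 and 0.778 CPM came from overlapping libraries.

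Over the 3 lines S1pr1 rose by 1.90 in mitotic cells (SE 0.392, adjusted p = 0.00101, edgeR; the filter was passed through mitotic libraries), with means of 0.621 ± 0.387 and 2.7 ± 1.56 CPM (SD, n = 6 each). The rise was 2.23 in S38A (SE 0.643, adjusted p = 0.0276), and S38D rose by 2.55 (SE 0.542, adjusted p = 0.00256), while WT gave 0.92 (95% interval -0.78 to 2.63, adjusted p = 0.423). The test of the difference from the WT change gave 1.31 for S38A (-1.04 to 3.65, adjusted p = 0.54) and 1.62 for S38D (-0.64 to 3.88, adjusted p = 0.411). The calls over the lines and in S38D were kept in 20 of 20 and 20 of 20 alternatives with an adjusted p. The S38A call was lost without S38A asynchronous replicate 1 (1.43, adjusted p = 0.257), without S38A mitotic replicate 1 (0.0814) or 2 (0.159) and with spike-in scaling (0.0531).

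Among mitotic cells S1pr1 was 2.0 higher in S38D than in WT (SE 0.527, adjusted p = 0.0404). Since S1pr1 was tested only because the mitotic S38A and S38D libraries passed the filter, this call is no independent support for a difference. S38A was at 1.09 against WT (95% interval -0.13 to 2.31, adjusted p = 0.22), and S38D at 0.90 against S38A (adjusted p = 0.184). From the summed mitotic reads S38D held 4.06 times the WT level (95% exact counting interval 2.07 to 8.67) and 1.87 times the S38A level (1.14 to 3.13). The S38D call was kept in only 8 of 20 alternatives. It was lost without WT asynchronous replicate 1 or 2, WT mitotic replicate 1 or 2, S38A mitotic replicate 1 or 2 or S38D mitotic replicate 1 or 2 (adjusted p between 0.0614 and 0.287), without both libraries that stand apart (1.75, adjusted p = 0.0906), and with spike-in scaling, limma-voom or robust estimation off (adjusted p between 0.0561 and 0.089). By mean the order was mitotic S38D, S38A and WT and then asynchronous S38D, WT and S38A, with overlap between neighbours from mitotic WT down. S1pr1 lies on chromosome 3 at 115710433 to 115715072, minus strand, in 2 exon blocks.

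Ccr6, the CCL20 receptor, Gpr183, the oxysterol receptor, and S1pr4, a further S1P receptor, had too few reads for a test. Ccr6 (chromosome 17, 8236043 to 8257141, plus strand) had 5 reads in asynchronous libraries (2 in S38A replicate 2 and 3 in S38D replicate 1) and 6 in mitotic ones (1 in WT replicate 1, 1 and 3 in S38A, 1 in S38D replicate 1). Gpr183 (chromosome 14, 121952551 to 121965195, minus strand) lies inside Ubac2 on the other strand, which had 1876 reads, so its single read may belong to either. S1pr4 (chromosome 10, 81497747 to 81500132, minus strand) is 1 exon with no read in any group.

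Across the 12 libraries Cxcr5 correlated with Cxcr4 at r = 0.56, with Ccr7 at -0.52 and with S1pr1 at -0.66 (Pearson, log2 CPM). These are descriptions, since the points share libraries, depth and the 6 groups. Among 6848 genes of at least 10 CPM, Cxcr4 was most alike to Kif15 (r = 0.936), which encodes a spindle motor, Ect2 (0.908), which encodes a regulator of cell division, and Fam83d (0.907). In S38D asynchronous replicate 1, which stands apart, Kif15, Ect2 and Fam83d were at 14.8, 9.55 and 11.9 CPM. In replicate 2 they were at 26.0, 20.5 and 24.2 CPM, and Cxcr4 was likewise lower in replicate 1 (442 against 605 CPM). The part of that library in the likeness was not tested. Among the genes most alike to Cxcr5 were Fbxw7 (0.958), which encodes a ubiquitin ligase subunit, and Frg1 (0.954).

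Other receptors of the same classes were followed next. Of 34 such genes 17 had a read and 8 were tested, and over the 3 lines 3 fell and 1 rose in mitotic cells, where 42.1% of all genes were called (2145 higher and 2262 lower of 10477). S1pr2, whose product confines B cells to germinal centres, fell by 1.32 (SE 0.0598, adjusted p = 1.43e-10), and Ackr4, a scavenger of CCR7 ligands, by 2.39 (SE 0.115, adjusted p = 3.01e-10). The other calls, named after their values were seen, were S1pr3 (-1.40, adjusted p = 0.00942) and Ptger4, a prostaglandin E2 receptor (2.03, adjusted p = 0.00309). S1pr3 had 101 reads and Ptger4 63 over all libraries, with means of 1.54 and 0.973 CPM. Both means lie under the filter level of 1.80 CPM. Each gene thus passed only through its higher libraries, and these 2 calls are no independent support for a change. S1pr3 was not called with DESeq2 (0.0551) or without WT asynchronous replicate 2 (0.0517), nor Ptger4 without WT mitotic replicate 1 (0.0613) or both libraries that stand apart (0.0692). Among S1P receptors over the lines S1pr1, with 105 reads, rose, while S1pr2, with 48885 reads, and S1pr3, with only 101, fell. The S1pr1 rise was not called in WT (0.92, adjusted p = 0.423), and S1pr1 passed the filter only through mitotic mutant libraries. P2ry10, a lysophospholipid receptor with a close paralog, was at 0.14 (adjusted p = 0.504).

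S1pr2 stood in asynchronous libraries at 766 and 764 CPM (WT), 1333 and 1389.9 CPM (S38A) and 1113 and 957 CPM (S38D), and in mitotic libraries at 353 and 349, 572 and 537 and 351 and 359 CPM. S38A exceeded WT without overlap in both states (0.83, adjusted p = 3.78e-05, and 0.66, adjusted p = 0.000384). Ackr4 stood in asynchronous libraries at 25.2 and 20.4 CPM (WT), 140.4 and 151 CPM (S38A) and 50.6 and 49.7 CPM (S38D), and in mitotic libraries at 4.53 and 7.68, 49.2 and 43.6 and 4.53 and 3.8 CPM. It too was higher in S38A than in WT, by 2.66 in asynchronous (adjusted p = 6.83e-08) and 2.94 in mitotic cells (adjusted p = 1.9e-07). In S38D, S1pr2 and Ackr4 were higher than WT in asynchronous cells (0.44, adjusted p = 0.015, and 1.13, adjusted p = 0.000897), but S1pr2 was at 0.047 (adjusted p = 0.819) with spike-in scaling. In mitotic S38D they were at 0.016 and -0.54 (adjusted p = 0.952 and 0.311).

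**Figure D3:**
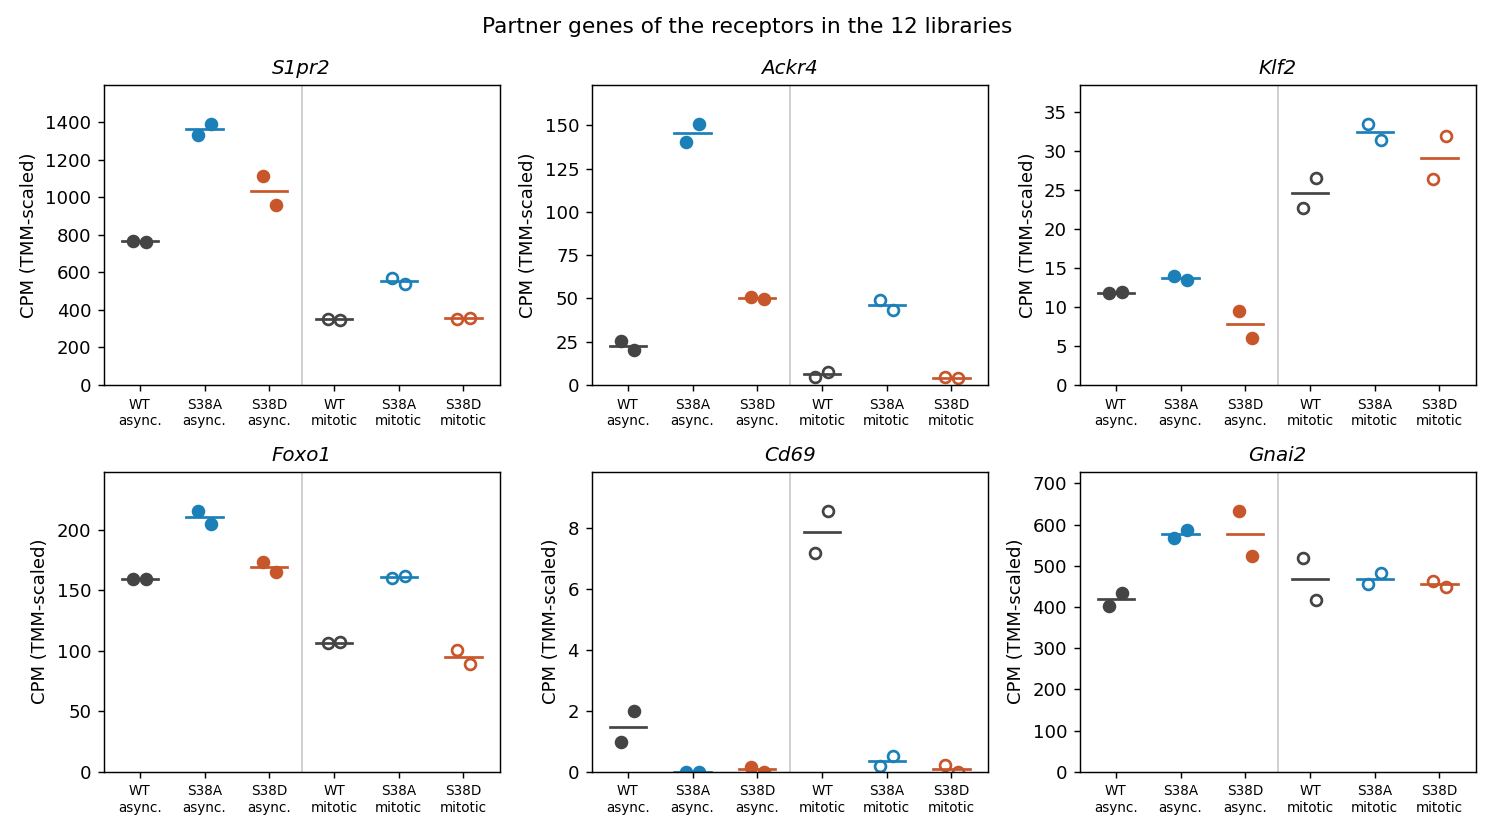
Level of 6 genes that act with the receptors, in CPM (TMM-scaled, linear axes from 0) in each of the 12 libraries. Points are libraries (filled asynchronous, open mitotic) and lines are means of 2 libraries. S1pr2 and Ackr4 are lower and Klf2 is higher in the mitotic libraries of each line, and Cd69 is near 0 in both mutant lines.

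Of 20 genes for ligands and for the enzymes and transporters that make, export or remove them, 6 were tested and 1 rose over the lines in mitotic cells, against 42.1% of all genes called. That was Cxcl10, a CXCR3 ligand, by 1.78 (adjusted p = 2.54e-07), from 5.73 ± 4.57 to 16.2 ± 5.53 CPM (SD, n = 6 each). It was lower than WT in S38A (-2.26 in asynchronous and -1.15 in mitotic cells, adjusted p = 7.79e-05 and 0.00291) and in asynchronous S38D (-1.85, adjusted p = 0.000833; 0.0777 with only the groups compared). Genes of S1P turnover were not called over the lines between states: Sgpp1 and Sgpl1, which break it down, were at 0.12 and 0.036, and Sphk2, which makes it, at -0.16 (adjusted p = 0.121, 0.725 and 0.142). Ch25h, which starts synthesis of the GPR183 ligand, had 0 reads.

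Of 25 genes for G proteins, receptor kinases, arrestins and RGS proteins 21 were tested, and 6 fell and 1 rose, against 42.1% of all genes called. Rgs13, whose product dampens CXCR4 and CXCR5 signals in germinal centre B cells, fell by 1.21 (SE 0.103, adjusted p = 2.47e-07). Grk2, a kinase that desensitises receptors, fell by 0.84 (SE 0.0753, adjusted p = 3.1e-07) and Gng2, a G protein subunit, by 0.41 (adjusted p = 0.000874). Rgs2 was the gene that rose (3.01, adjusted p = 2.15e-13). Gnai2, the inhibitory G protein these receptors use, was at -0.16 (adjusted p = 0.077; 525 ± 90.5 against 464 ± 33.8 CPM, SD, n = 6 each). Rgs1 had 13 reads, none in an asynchronous library. With spike-in scaling 10 fell and 1 rose, where 3344 of all 10477 genes were called lower and 1035 higher. The counts of this list also changed without the 2 libraries that stand apart.

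Of 31 genes that carry the signal to the cytoskeleton and integrins 29 were tested, and 17 fell and 1 rose. Of all genes 42.1% were called, 2262 of 10477 lower. The list had a median of -0.35 against -0.02 over all genes. The PI3K genes Pik3cg and Pik3cd fell by 1.36 and 0.82 (adjusted p = 1.43e-06 and 4.51e-08), the kinase gene Ptk2b by 1.30 (7.48e-07) and the GTPase gene Rac2 by 0.73 (2.08e-06). Rap1b, named after its value was seen, rose (0.26, adjusted p = 0.00195; 0.074, adjusted p = 0.521, with spike-in scaling). With spike-in scaling 21 fell and 0 rose, but there 3344 of all 10477 genes were called lower and 1035 higher (median -0.20). Between asynchronous lines the direction depended on the scaling: against WT, 10 were higher and 3 lower in S38A, but 1 and 8 with spike-in scaling, and 6 and 1 in S38D became 0 and 5. The same held over all genes, of which 21.2% were called in S38A and 8.99% in S38D before spike-in scaling. With it, genes called higher and lower went from 1224 and 999 to 202 and 3115 in S38A. In S38D they went from 510 and 432 to 58 and 1307.

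Of 16 adhesion molecule genes of homing 12 were tested, and 4 fell, against 42.1% of all genes called. These were Pecam1 by 0.59 (adjusted p = 0.000153), Itgb2, an integrin chain, by 0.53 (0.00316), and the tetraspanin genes Cd37 and Cd81 by 0.26 and 0.21 (0.0234 and 0.0234). The Cd37 and Cd81 calls were kept in 14 of 21 and 16 of 21 alternatives. The counts of the list also changed, in both directions, without the 2 libraries that stand apart. Pecam1 was higher in S38A than in WT by 2.0 in asynchronous (adjusted p = 9.07e-07) and 1.94 in mitotic cells (1.86e-06).

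Of 21 regulators of receptor transcription or surface display, all tested, 14 fell and 2 rose in mitotic cells. Of all genes 42.1% were called, 2262 of 10477 lower. The list had a median of -0.71 against -0.02 over all genes. Foxp1, Bcl6, Pou2af1 and Spib, all B cell transcription regulators, fell by 1.56, 1.29, 1.25 and 1.07 (adjusted p = 6.14e-10, 1.75e-09, 2.63e-09 and 3.04e-09). Foxo1, which drives Ccr7 in lymphocytes, fell by 0.60 (SE 0.0611, adjusted p = 1.16e-06). Klf2, an activator of S1pr1 in lymphocytes, rose by 1.40 (SE 0.121, adjusted p = 2.23e-07). Its mean was 11.1 ± 2.95 CPM in asynchronous and 28.7 ± 4.15 CPM in mitotic libraries (SD, n = 6 each). Irf4, named after its value was seen, was the other to rise (0.41, adjusted p = 0.000244; 0.23, adjusted p = 0.0702, with spike-in scaling). With spike-in scaling 15 fell and 1 rose, but there 3344 of all 10477 genes were called lower and 1035 higher (median -0.20).

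Between mitotic lines 10 of these 21 regulators were higher and 2 lower in S38A than in WT (9 and 2 with spike-in scaling), and 1 higher and 2 lower in S38D, where 17.0% and 4.56% of all genes were called. Bcl6, which holds the germinal centre program, was 1.18 higher in mitotic S38A than in WT (adjusted p = 1.49e-05) and Foxo1 0.60 higher (0.00111). Klf2 was at 0.40 in S38A and 0.25 in S38D against WT (adjusted p = 0.184 and 0.545).

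Cd69, whose protein takes S1PR1 off the cell surface, was read almost only in WT. WT held 5 and 7 reads in asynchronous and 38 and 39 in mitotic libraries. S38A held 0 and 0 and then 1 and 3 reads, and S38D 1 and 0 and then 1 and 0. Both mutant lines were called lower than WT in mitotic cells (adjusted p = 0.000148 for S38A and 0.000149 for S38D), where WT held 21.8 times the S38A level (95% exact counting interval 8.19 to 82.2) and 81.1 times the S38D level (14.1 to 3244). Cd69 passed the filter only through WT libraries, where it is highest, so these calls are no independent support for a difference between lines. The WT mitotic level was 5.63 times the asynchronous one (3.04 to 11.4; adjusted p = 0.0021, and 0.065 without WT asynchronous replicate 1). In mitotic cells the lines with fewer Cd69 reads were those with more S1pr1 reads. In asynchronous cells the mutant lines also held fewer Cd69 reads. There the S1pr1 libraries of the lines overlapped (means of 0.577 CPM in WT, 0.51 in S38A and 0.778 in S38D). A link of Cd69 to S1pr1 was not tested.

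**Figure D4:**
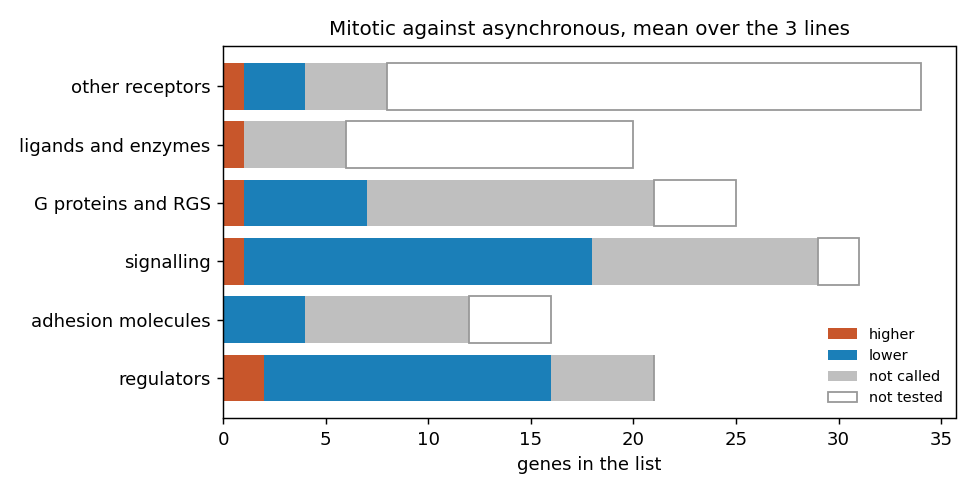
Number of genes in each of 6 pathway lists that were higher, lower, not called or not tested in mitotic against asynchronous cells over the 3 lines (edgeR, adjusted p under 0.05). Among the regulators 14 of 21 were lower and 2 higher, and among the signalling genes 17 of 29 tested were lower and 1 higher.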

How the data were processed

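The authors deposited 1 file of counts per library, as whole reads per gene (51826) and spike-in (92), not normalized. The submitters' processing notes name mm10, STAR 2.5.3a, cutadapt 1.12 and bcl2fastq 2.16.0.10. How reads were counted, with which strand setting and annotation, was not given in the sources used here. GENCODE M21 (GRCm38) supplied symbols and positions, matching 51633 identifiers (99.6%).

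After filterByExpr (minimum count 10 by group) 10477 genes were left. With TMM scaling, edgeR 4.0.16 (R 4.3.3) fitted 1 mean for each group (6 residual degrees of freedom), and robust quasi-likelihood F tests were adjusted by Benjamini-Hochberg within each of 12 comparisons. SEs derive from the F statistic. The fit was also run on simulated counts. These were drawn independently for each library, without the axis on which some libraries stand apart, so that run cannot show how the axis affects the calls. Exact Poisson intervals (95%) and the 3-read floor cover counting error alone.

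The members and lists were chosen with earlier results of these data known. Besides the members, the text names from each list up to 4 genes of at least 10 CPM with the smallest adjusted p over the lines, then Klf2, Foxo1, Cd69, Gnai2, Rgs1, S1pr2, Ackr4, Ch25h and Sgpl1, and the 3 genes most alike to Cxcr4 and Cxcr5; 2 genes that this rule names are not reported here. Alternatives were DESeq2 1.42.0, limma-voom (limma 3.58.1), DESeq2 size factors, spike-in scaling, no filter or one of 10 CPM in 2 libraries, fits without robust estimation, fits on the compared groups alone, a block for the replicate number, and leaving out single libraries, where the spread of a lone library is taken from the remaining groups. Leaving out both libraries that stand apart was added after seeing the data.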

Additional observations from a re-analysis of the deposited data

Results flagged for a closer look

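The mitotic change of Ackr4, the scavenger of CCR7 ligands, differed between lines by a test of the difference itself: in S38D minus WT it was -1.66 on the log2 scale (SE 0.314, adjusted p = 0.036, edgeR). Its mitotic change was -1.92 in WT (adjusted p = 2.11e-05) and -3.59 in S38D (1.56e-08). The call was lost with spike-in scaling (-1.35, adjusted p = 0.14), limma-voom (0.119), a 10 CPM filter (0.0549), robust estimation off (0.0948) and only the groups compared (0.25). Of single libraries, WT asynchronous replicate 1 or 2, S38A asynchronous replicate 1 or 2, WT mitotic replicate 2, S38A mitotic replicate 1 or 2 and S38D mitotic replicate 1 or 2 ended it when left out (Ackr4 adjusted p between 0.0549 and 0.194), with the value between -1.84 and -1.25.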

How the results depend on the processing

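The mitotic falls of Cxcr5 and the rises of S1pr1 over the lines and in S38D were called in every alternative that gave an adjusted p. For S1pr1 this is no independent support, since it passed the filter only through mitotic S38A and S38D libraries, the high side of these comparisons. In mitotic S38A against WT the 3 members called became 2 with spike-in scaling, DESeq2 and a 10 CPM filter, and over the lines 3 became 2 with DESeq2 and 4 without both libraries that stand apart. Counts of members are not read as support: 4 genes passed the filter, Ccr7 and S1pr1 only through their highest libraries. Of all genes edgeR called 42.1% over the lines, and 26.0% in WT, 14.8% in S38A and 26.4% in S38D between states. Against WT it called 21.2% (S38A) and 8.99% (S38D) in asynchronous and 17.0% and 4.56% in mitotic cells. S38D against S38A gave 7.22% (asynchronous) and 17.7% (mitotic), and the changes minus WT 0.993% (S38A) and 0.401% (S38D). Other counts of members called moved by more than 1.5 times. With spike-in scaling they were 1 for mitotic S38A cells against asynchronous ones, 2 for S38D against WT in asynchronous and 0 in mitotic cells, and 0 for S38D against S38A in mitotic cells. DESeq2, which gave no adjusted p for Ccr7 and S1pr1 in most comparisons, called 1 in S38A and 1 in S38D between states, 0 in either line against WT in asynchronous cells, 0 in mitotic S38D against WT and 0 in mitotic S38D against S38A. A 10 CPM filter, under which only Cxcr4 and Cxcr5 were tested, left 1 over the lines, 1 in S38A and 1 in S38D between states, 0 in either line against WT in asynchronous cells, 0 in mitotic S38D against WT and gave 1 in asynchronous S38D against S38A. In mitotic S38D against WT limma-voom and robust estimation off called 0, no filter 3 and only the groups compared 2. With only the groups compared, asynchronous S38D against WT gave 0. In asynchronous S38D against S38A the count was 1 with DESeq2 size factors, limma-voom, no filter and without both libraries that stand apart.

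The replicate number as a block gave 1 in asynchronous S38D against S38A and changed no other call of a member. Of 15 correlations of same-numbered deviations between groups, 3 were above 0.1 (0.786, 0.591 and 0.549, the pairs among asynchronous S38D, mitotic WT and mitotic S38A) and 3 below -0.1 (-0.399, -0.362 and -0.364, those of asynchronous S38A with the same 3 groups; 7062 genes). Since not every pair was above 0.1 and the labels name no shared batch, the numbers were not taken to pair the samples. With the block, 95 genes in place of 42 were called for the change in S38D minus WT.

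With 1 library left out, members called ranged from 1 to 2 in WT and in S38A between states, 0 to 1 in asynchronous S38A and S38D against WT, 0 to 3 in mitotic S38A and S38D against WT, 0 to 2 in asynchronous and 0 to 1 in mitotic S38D against S38A, and 0 to 1 in each difference of changes. Of 576 such values 502 kept direction and side of the threshold and 17 changed sign, none of them called.

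Uncalled values that changed sign follow. With spike-in scaling Cxcr4 was at -0.086 in S38D between states and -0.44 in asynchronous S38A against WT, Cxcr5 at -0.19 there and Ccr7 at -0.056 in mitotic S38D against S38A (-0.0022 with no filter). Ccr7 in asynchronous S38D against S38A was 0.11 with limma-voom. Without both libraries that stand apart Cxcr4 was at -0.16 in S38D between states, 0.14 in asynchronous S38D against WT and 0.078 against S38A. With single libraries left out, Cxcr4 ranged from -0.15 to 0.046 in S38A and -0.16 to 0.28 in S38D between states, and in asynchronous cells from -0.056 to 0.16 in S38A against WT, -0.29 to 0.14 in S38D against WT and -0.35 to 0.078 in S38D against S38A. Cxcr5 in mitotic S38D against WT ranged from -0.036 to 0.34. For Ccr7 the range was -0.89 to 1.40 in asynchronous and -0.40 to 0.60 in mitotic S38D against S38A, and -0.098 to 2.19 for the change in S38A minus WT. For S1pr1 in asynchronous cells it was -1.70 to 0.60 in S38A against WT, -0.78 to 1.08 in S38D against WT and -0.60 to 2.10 in S38D against S38A. Their cause was not tested.

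Over all genes, spike-in scaling moved the median to -0.20 over the lines, -0.46 in WT, 0.46 for the change in S38A minus WT and 0.29 for that in S38D minus WT, and the genes called higher and lower went from 2145 and 2262 to 1035 and 3344 over the lines, in WT from 1399 and 1328 to 217 and 3232. Genes called, with their range over the alternatives, were 2727 (1105 to 3786) in WT between states, 1548 (625 to 2914) in S38A between states, 2762 (1165 to 3757) in S38D between states, 2223 (873 to 3900) in asynchronous S38A against WT, 942 (83 to 3212) in asynchronous S38D against WT and 1785 (796 to 2594) in mitotic S38A against WT. They were 478 (182 to 1087) in mitotic S38D against WT, 756 (105 to 1920) in asynchronous S38D against S38A, 1851 (707 to 3204) in mitotic S38D against S38A, 104 (6 to 1285) in the change in S38A minus WT and 42 (0 to 2757) in that in S38D minus WT. Without S38D asynchronous replicate 2, genes called in asynchronous S38D against WT rose from 942 to 3212 and those in the change of S38D minus WT from 42 to 2757. With only the groups compared these were 83 and 0. Reads limit Ccr7 and S1pr1, whose single libraries hold 1 to 24 reads.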
